A study of Mus musculus with 12 samples.

Results

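Gm15441 and Txnip are a pair of mouse genes that lie across each other on opposite strands of chromosome 3. Both were chosen by symbol, as 2 of the 24552 symbols in the deposited count table, because Gm15441 was already known to be among the most counted symbols of the table. Their levels are therefore a description, and tests are given only for differences between groups. Earlier results of these data were known when the symbols were chosen, so these tests may not be independent of that choice. The counts came from bone marrow-derived macrophages cultured with 10 ng/ml of the growth factor M-CSF over 6 days. Vehicle M0 and vehicle M1 cells received vehicle (DMSO), and ISRIB M0 and ISRIB M1 cells received 50 nM ISRIB, a compound that blocks the integrated stress response by acting on eIF2B. Either agent was given 1 h ahead, and M1 cells then had 16 h of LPS (10 ng/ml) with IFN-γ (25 ng/ml), the agent being kept in the medium. What M0 cells received during those hours is not spelled out in the labels. Each of the 4 groups had 3 samples labelled as biological replicates, and the labels do not say how many animals gave the marrow, so p-values measure the spread between these samples.

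Txnip encodes thioredoxin-interacting protein, an alpha-arrestin that binds thioredoxin, holds back glucose uptake and has been linked to activation of the NLRP3 inflammasome. Its transcription is driven by the glucose-sensing factors MondoA and ChREBP with their partner MLX. Gm15441 is a long non-coding RNA transcribed from the strand opposite Txnip and is known from mouse liver, where the fatty acid receptor PPARα induces it and it lowers Txnip.

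The geometry of the locus decides which RNA a read can come from. In GENCODE M21 (GRCm38, the same assembly as the submitters' mm10), Gm15441 lies at chr3:96555765-96566801 on the minus strand and is annotated as an antisense gene. Txnip lies at chr3:96557957-96561883 on the plus strand, wholly within the span of Gm15441. The 2 genes share 606 exonic bases, which are 36.2% of the 1676 exonic bases of Gm15441 and 19.4% of the 3123 exonic bases of Txnip. The longer Gm15441 transcript has 4 exons and holds all 606 shared bases, whereas the shorter, of 3 exons and 659 bases, shares 0 with Txnip exons. The first shared stretch, chr3:96557957-96558397, covers 441 bases of the first exon of Txnip, with the 5′ UTR and the first 162 coding bases. The second, chr3:96559678-96559842, covers 165 coding bases in exon 5 of Txnip, exon 2 of the longer Gm15441 transcript. Neither gene had an exon overlap with any other gene in this annotation.

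**Figure D1:**
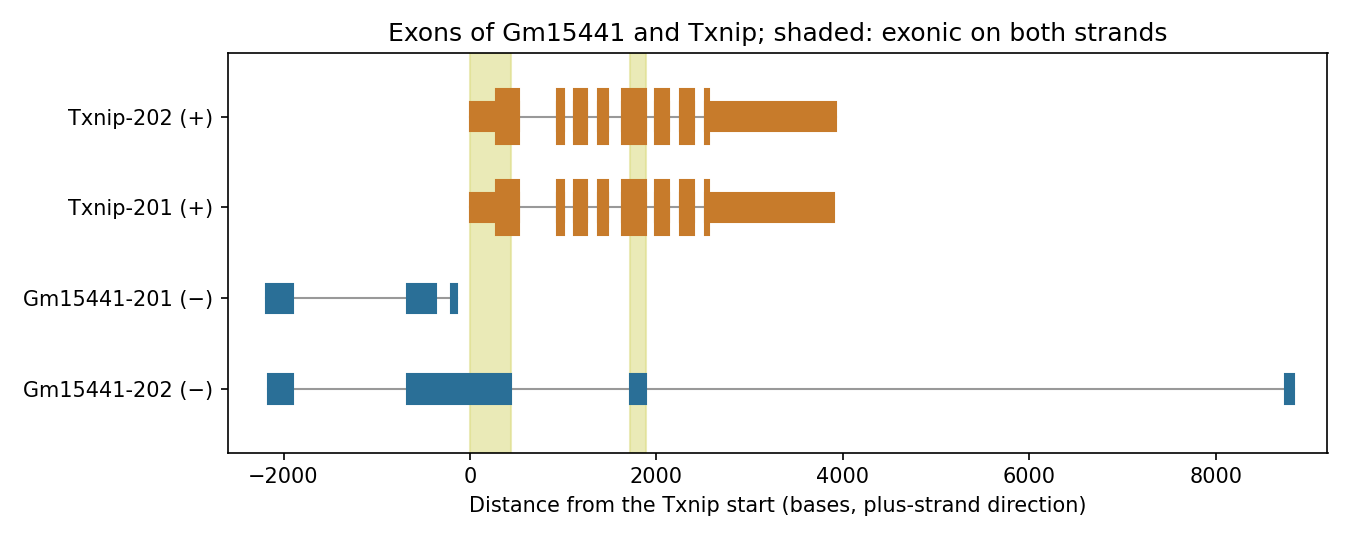
Annotated exons of the 2 transcripts of Gm15441 (blue, minus strand) and the 2 full-length coding transcripts of Txnip (orange, plus strand; tall boxes are coding), by distance in bases from the Txnip start. The shaded stretches of 441 and 165 bases are exonic on both strands, and the Gm15441 exon that covers the Txnip start runs on upstream of it.

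The shared coding bases are shown because a read from them has the same letters whichever RNA it came from, apart from strand. The Gm15441 stretch matched the reverse complement of the Txnip stretch at 162 of 162 bases in exon 1 and at 165 of 165 bases in exon 5. All are written 5′ to 3′ on the strand of the named gene, from GENCODE M21 transcripts, and capitals mark the Txnip start codon and its complement.
Txnip exon 1, chr3:96558236-96558397, plus strand: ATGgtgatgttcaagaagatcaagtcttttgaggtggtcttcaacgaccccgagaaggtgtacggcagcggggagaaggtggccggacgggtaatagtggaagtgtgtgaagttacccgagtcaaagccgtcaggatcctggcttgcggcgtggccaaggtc
Gm15441 exon 3, the same bases, minus strand: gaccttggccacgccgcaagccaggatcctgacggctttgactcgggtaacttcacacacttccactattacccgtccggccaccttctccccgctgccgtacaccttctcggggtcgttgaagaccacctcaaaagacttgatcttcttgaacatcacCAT
Txnip exon 5, chr3:96559678-96559842, plus strand: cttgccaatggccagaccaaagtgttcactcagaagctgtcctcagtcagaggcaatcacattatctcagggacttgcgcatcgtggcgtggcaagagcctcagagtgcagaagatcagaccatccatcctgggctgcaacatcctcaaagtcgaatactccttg
Gm15441 exon 2, the same bases, minus strand: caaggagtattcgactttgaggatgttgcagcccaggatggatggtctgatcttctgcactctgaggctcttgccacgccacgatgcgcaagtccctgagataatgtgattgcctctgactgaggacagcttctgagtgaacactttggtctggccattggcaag

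The 250 bases before the annotated Txnip start, chr3:96557707-96557956, are shown from the RefSeq promoter table (GRCm38.p6) because all 250 lie inside a Gm15441 exon. A read from them on the minus strand is thus exonic for Gm15441 and upstream of Txnip. Capitals mark matches to CCAAT on either strand and to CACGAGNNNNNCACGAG, a pair of E-box-like elements of the kind that MondoA and ChREBP bind.
Txnip upstream window, plus strand: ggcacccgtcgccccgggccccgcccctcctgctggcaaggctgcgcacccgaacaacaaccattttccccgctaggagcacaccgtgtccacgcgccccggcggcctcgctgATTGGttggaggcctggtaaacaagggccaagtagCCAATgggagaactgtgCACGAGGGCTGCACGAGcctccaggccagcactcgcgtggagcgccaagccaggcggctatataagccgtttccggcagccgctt
Over both strands, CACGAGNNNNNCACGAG was found in 1 of 32851 windows of the same length, a share of 0.00304%, and that window was the one of Txnip. The motif was written with the Txnip window in view. CCAAT occurred 2 times here, once on each strand, and in 33.8% of all windows. TATAA began 25 bases before the start, inside no other motif, and was present in 22.8% of windows. The palindrome CACGTG, found in 6.02% of windows, was not in these letters. These matches describe letters and are not sites.

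Which RNA the counts report could not be told from the tables. The libraries were strand-specific, and the submitters' processing notes name the counting program HTSeq without its strand setting. By that setting, a read from the 606 shared bases goes to 1 symbol, to the other or to neither. Since the setting is unknown, counts under Gm15441 may report Gm15441 RNA, Txnip mRNA or both. In what follows, levels are counts assigned to a symbol. Of the 24030 symbols matched to GENCODE M21, the 24.1% with an exon on the opposite strand of another gene's exon held 91.2% to 93.1% of the matched counts in each of the 12 libraries. Among coding symbols without such an overlap, the 6480 with any count had a median of 0.917 counts per library. Library totals ran from 439976 to 514037 counts. In CPM, which puts the libraries on 1 scale with TMM factors, a single count was worth 1.79 to 2.57. Of 12 macrophage markers, 9 had a mean of at least 10 counts and 0 were without counts, with Lyz2 at 153 and Mrc1, the mannose receptor, at 1.25. Their summed level was 3785 to 5345 CPM in M0 and 460 to 963 in M1, most of it in M0 under Cd163, a scavenger receptor gene. The 4 fibroblast markers had 0 counts, and T cell, B cell and neutrophil markers summed to at most 9.62 CPM per type in any library. The 4 dendritic cell markers summed to 10.7 to 35.6 CPM in M0 and 832 to 1065 in M1, nearly all under Xcr1, while Flt3 and Zbtb46 had 0 counts in all libraries. Whether these differences have a part in those of Gm15441 was not tested. In bulk RNA, fewer cells that carry a transcript and less of it per cell cannot be told apart.

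Gm15441 was 1 of the 2 symbols with the most counts in all 6 M0 libraries. Vehicle M0 libraries held 24970, 25951 and 23046 counts in replicates 1, 2 and 3, which were 4.86%, 5.22% and 5.03% of each library. ISRIB M0 libraries held 18507, 20942 and 21553, or 4.03%, 4.23% and 4.40%. In every ISRIB M0 library the share was under that of every vehicle M0 library. In CPM, ISRIB M0 libraries lay wholly under vehicle M0 libraries for 5.73% of tested genes. Exact 95% binomial intervals of the Gm15441 shares were narrow, for example 4.80% to 4.92% in vehicle M0 replicate 1, and cover counting error only.

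Stimulated cells had far fewer. Vehicle M1 libraries held 3614, 3506 and 4331 counts of Gm15441, or 0.774%, 0.797% and 0.930%. ISRIB M1 libraries held 4012, 3449 and 4197, or 0.856%, 0.699% and 0.881%. All 6 M1 libraries lay under all 6 M0 libraries, while the vehicle and ISRIB M1 groups overlapped. In CPM, M1 libraries lay wholly under M0 for 25% of tested genes in vehicle and 26.4% under ISRIB. The share of tested genes for 6 against 6 was not counted. The rank of Gm15441 by counts fell to between 13 and 21 in M1.

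Txnip was near the floor of the table in every group. Vehicle M0 libraries held 12, 6 and 2 counts and ISRIB M0 libraries 2, 24 and 6. Vehicle M1 libraries held 6, 0 and 2 counts and ISRIB M1 libraries 2, 2 and 8. The 4 groups overlapped, and the highest value, 24 counts in ISRIB M0 replicate 2, stood apart from the 2 and 6 counts of the rest of its group. Exact two-sided permutation tests of Txnip, 3 against 3 on the log2 of CPM plus 1, gave p of 0.5 or 0.7 in the 4 pairs of groups. The smallest p possible there is 0.1. The largest share of a library was 0.00485% (exact 95% interval 0.00311% to 0.00721%), and the library with 0 counts allows a share of up to 0.000838% by the same interval. These intervals take each count as an independent draw and would be too narrow if counts were not independent. All 11 Txnip counts above 0 were even, and how read pairs were counted was not tested.

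**Figure D2:**
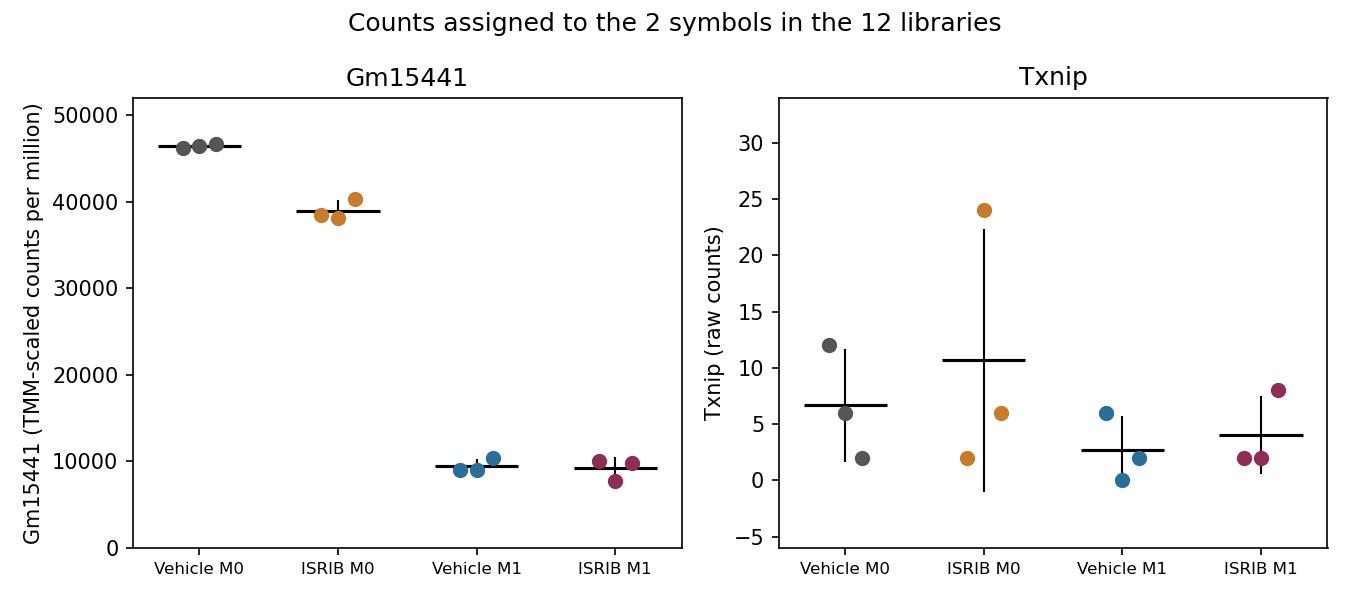
Left, Gm15441 in TMM-scaled CPM, and right, Txnip in raw counts, for the 3 libraries (points) of each group, with the mean (bar) and SD (line). Gm15441 stands near 46469 in vehicle M0, 38986 in ISRIB M0 and 9200 to 9491 in both M1 groups, while Txnip has at most 24 counts and all its groups overlap.

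Per kilobase of annotated exon, the level of Gm15441 in vehicle M0 was 27726 ± 130 CPM per kb (SD, n = 3) and that of Txnip 3.95 ± 2.94. In vehicle M1 these levels were 5663 ± 475 and 2.12 ± 2.46 CPM per kb. Each divisor was the full exon length of the named gene, 1676 bases for Gm15441 and 3123 for Txnip. Reads of Txnip mRNA could meet Gm15441 exons only at the 606 shared bases. The values per kb thus compare the 2 RNAs only if each symbol reports its own RNA. Of the pair's counts, Txnip held 0.0388% ± 0.0397 (SD) over the 6 M0 libraries, with a lowest, median and highest share of 0.00868%, 0.0255% and 0.115%. Over the 6 M1 libraries it held 0.0850% ± 0.0752, with 0, 0.0539% and 0.190%. The difference of 0.0462 percentage points had a two-sided exact permutation p of 0.216 (6 against 6), so it was within the spread between libraries, and the smallest p that this design allows is 0.00216. The difference was 0.0251 points without ISRIB M1 replicate 3 and 0.0300 without vehicle M1 replicate 1 (two-sided exact permutation p = 0.433 for both).

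The first comparison asked how polarization changed the pair in vehicle-treated cells. Gm15441 fell 4.90-fold (95% interval 4.26 to 5.63), from 46469 ± 218 CPM in vehicle M0 to 9491 ± 797 in vehicle M1 (SD, n = 3). Its log2 fold change was -2.29 ± 0.10 (SE; edgeR adjusted p = 3.67e-16, Benjamini-Hochberg over 2356 genes). Polarization called 44.8% of the tested genes, with 20.5% of those tested called lower. The M1 libraries lay wholly under the M0 libraries for 25% of tested genes and wholly above for 27.7%. By p it ranked 9 and by size of the decrease 194 of the 2356, so many genes fell further. Txnip was under the filter on low counts and was not tested with these genes. In the same edgeR test without a filter, over 10978 genes, its log2 fold change was -0.97 ± 1.08 (edgeR adjusted p = 0.654). It was -2.29 without vehicle M1 replicate 1, -0.26 without vehicle M0 replicate 1 and -0.38 without vehicle M1 replicate 2.

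Under ISRIB, polarization lowered Gm15441 4.24-fold (95% interval 3.69 to 4.87), from 38986 ± 1213 to 9200 ± 1266 CPM (SD, n = 3). The log2 fold change was -2.08 ± 0.10 (edgeR adjusted p = 1.81e-15). Here too 44.8% of tested genes were called, 20.9% as lower, and M1 libraries lay wholly under M0 for 26.4% and wholly above for 28.8%. For Txnip, without the filter, it was -1.09 ± 1.04 (edgeR adjusted p = 0.588). Leaving out ISRIB M0 replicate 2 turned that value to 0.22.

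In M0 cells, the difference of Gm15441 with ISRIB from vehicle was -16.1% (95% interval -26.5% to -4.21%), and the 3 libraries of each group did not overlap. The log2 fold change was -0.25 ± 0.09 (edgeR unadjusted p = 0.0115, adjusted p = 0.561), which did not pass. None of the 2356 tested genes did (0%), and 143 had an unadjusted p under 0.05. ISRIB libraries lay wholly under vehicle libraries for 5.73% of tested genes and wholly above for 5.56%. With limma-voom in place of edgeR the log2 fold change was again -0.25, with an SE of 0.05 (limma adjusted p = 0.0240), and Gm15441 was the 1 gene of 2356 called. With the DESeq2 Wald test its adjusted p was 0.447 and 3 other genes were called. Over all alternatives the adjusted p ran from 0.0240 to 0.962 and the log2 fold change from -0.27 to -0.22. An exact permutation test of 3 against 3 gave the smallest p it can, 0.1. Txnip had 20 counts in all in vehicle M0 and 32 in ISRIB M0, 24 of them in 1 library, and its log2 fold change of 0.65 ± 1.00 did not pass (unfiltered edgeR adjusted p = 1).

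In M1 cells, ISRIB and vehicle did not differ beyond the replicates for Gm15441. The means were 9200 ± 1266 and 9491 ± 797 CPM (SD, n = 3), a difference of -3.08% with a 95% interval from -15.2% to 10.8%. The log2 fold change was -0.05 ± 0.09 (edgeR adjusted p = 0.989). Again 0 of 2356 genes were called (0%), with ISRIB libraries wholly under vehicle libraries for 6.2% and wholly above for 5.39%. By edgeR 134 had an unadjusted p under 0.05, and DESeq2 and limma-voom called 0. Txnip had 8 counts over the vehicle M1 libraries and 12 over the ISRIB M1 libraries, a log2 fold change of 0.53 ± 1.11 (unfiltered edgeR adjusted p = 1).

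Whether ISRIB changed the response of Gm15441 to polarization was tested as an interaction. The fall was smaller with ISRIB by 0.21 ± 0.13 on the log2 scale (95% interval -0.06 to 0.48), which did not pass (edgeR unadjusted p = 0.127, adjusted p = 0.771). It was 0.13 without ISRIB M1 replicate 1 and 0.32 without ISRIB M1 replicate 2 (edgeR unadjusted p = 0.0117, adjusted p = 0.492). For Txnip it was -0.12 ± 1.64 (unfiltered edgeR adjusted p = 1). In this contrast 0 of 2356 genes passed in edgeR (0%), 167 had an unadjusted p under 0.05, and DESeq2 and limma-voom called 0. The 2 polarization contrasts and the 2 ISRIB contrasts use the same 12 libraries, so their values are not independent.

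**Figure D3:**
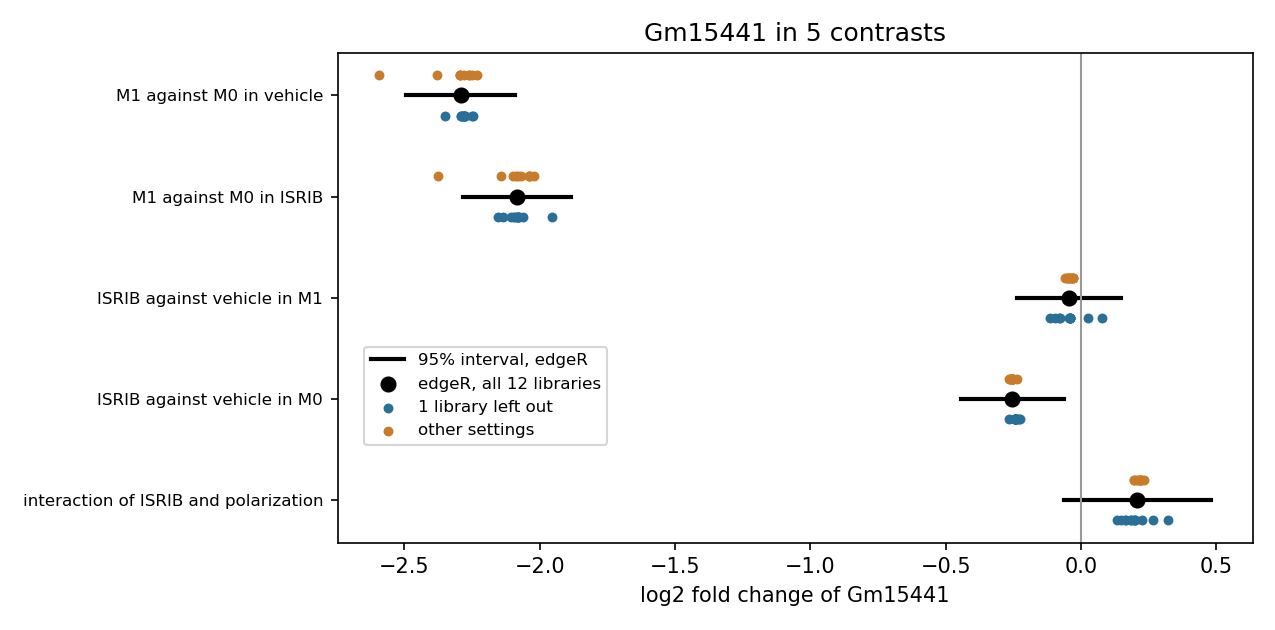
The log2 fold change of Gm15441 (horizontal axis) in 5 contrasts, with the edgeR estimate from all 12 libraries (black point), its 95% interval (black line), fits without 1 library (blue) and other settings (orange). Both polarization contrasts lie near -2.29 and -2.08, the ISRIB contrast in M0 keeps below 0 at every setting run, and that in M1 spans 0.

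The division of counts between the 2 symbols was set beside 4 other opposite-strand pairs. Gm15441 held 99.8% to 100% of the counts of its pair over the 12 libraries, with a median of 99.95%. Fdft1, squalene synthase, held 96.5% to 99.6% of its pair with the lysosomal protease gene Ctsb, and Tmem132a 99.5% to 99.8% of its pair with the transporter gene Slc15a3. Zeb2os held 21.6% to 49.6% of its pair with Zeb2, a transcription factor gene, so there the coding symbol had the larger part in every library. Il1bos and Il1b, the interleukin 1 beta gene, shared between 1 and 58 counts, too few to place. Among 57 annotated antisense genes with 1 coding partner and a pair mean of at least 50 counts, 49 held over 90% of their pair's counts, the median share was 99.4%, and in 3 pairs the coding symbol held over 90%. Gm15441 with Txnip had the most counts of these 57 pairs and ranked 7 by the share under the antisense symbol.

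**Figure D4:**
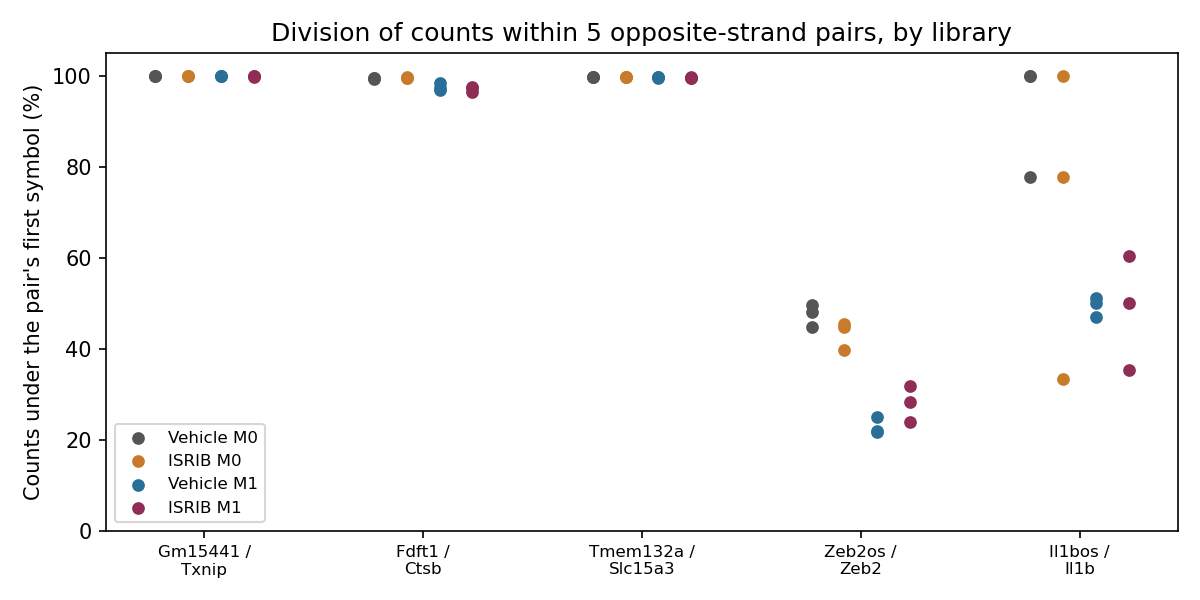
Percent of a pair's counts that were assigned to its first-named symbol, for 5 opposite-strand pairs; each point is 1 of 12 libraries, coloured by group. Gm15441, Fdft1 and Tmem132a lie at 96.5% or above in all libraries, and Zeb2os lies between 21.6% and 49.6%.

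Genes around the pair had few counts. Of 39 annotated genes within 200 kb of Gm15441, 15 are symbols of the table and 6 of these had no count in any library. This was common in the table, where 10978 of 24552 symbols had any count and 2356 were tested. Nudt17, a nudix hydrolase gene whose exons overlap Pias3, had the most, with 0 to 20 counts per library, and was the 1 neighbour tested. Its log2 fold change was -1.43 ± 0.79 in vehicle (edgeR adjusted p = 0.149) and 0.23 ± 0.70 under ISRIB (edgeR adjusted p = 0.818). Polr3gl, a subunit gene of RNA polymerase III, Lix1l and Pias3, a SUMO ligase gene, reached at most 10 counts each.

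The genes known to control Txnip or to resemble it had too few counts to test. All 13 of that list were in the table, 3 of them, Mlxipl (ChREBP), Ppara and Arrdc5, had 0 counts in all 12 libraries, and 0 were tested. Of all 24552 symbols, 2356 were tested. Mlxip, the gene of MondoA, reached at most 4 counts and its partner Mlx at most 4. Arrdc4, an alpha-arrestin gene that is also a target of MondoA, and Arrdc3 reached at most 12 counts each.

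In the thioredoxin system, 5 of 14 listed genes were tested, 2 of them with an opposite-strand overlap. A gene was tested where at least 3 libraries reached 21.2 CPM before TMM scaling. Txn1, Prdx5 and Srxn1 reached that level in 0 of the 6 M0 libraries, so they were tested only because they were high in M1, and their direction was set by the filter. The other 2 genes, Prdx1 and Txnrd2, reached it in M0 as well; Prdx1 was higher and Txnrd2 lower in M1 in both treatments, where 24.3% of tested genes were called higher in vehicle and 23.9% under ISRIB. With a mean of 50 counts required, Txnrd2 was the 1 gene of the list tested. Prdx1, a peroxiredoxin that reduces peroxides with electrons from thioredoxin, rose from 26.8 ± 7.81 to 205.7 ± 84.3 CPM (SD, n = 3), a log2 fold change of 2.92 ± 0.46 (edgeR adjusted p = 8.61e-06). Prdx5, another peroxiredoxin, whose exons overlap Trmt112, rose from 9.40 ± 8.01 to 112.7 ± 13.0 CPM (adjusted edgeR p of 0.000158). Txn1, the thioredoxin that TXNIP binds, had 0 counts in all 6 M0 libraries and at most 24 in M1, with an adjusted edgeR p of 0.0212 in vehicle. Srxn1, which repairs peroxiredoxins, rose from 1.35 ± 2.34 to 29.8 ± 12.3 CPM (adjusted edgeR p of 0.00685). Txnrd2, mitochondrial thioredoxin reductase, fell from 127.6 ± 35.4 to 57.3 ± 17.2 CPM (adjusted edgeR p of 0.00615); without vehicle M0 replicate 2 it was not called.

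Of 10 NLRP3 inflammasome genes 3 were tested, and these 3 reached the level of the filter in 0 M0 libraries. Their direction was thus set by the filter, the other 7 were not tested, and with a mean of 50 counts required 0 of the list were tested. Casp1, the protease that matures interleukin 1 beta, rose from 0.675 ± 1.17 to 40.1 ± 15.6 CPM in vehicle (SD, n = 3; adjusted edgeR p of 0.000143). Il1b, whose exons overlap Il1bos, rose from 1.35 ± 2.34 to 41.3 ± 9.21 CPM (adjusted edgeR p of 0.000200). Il1rn, the antagonist of the interleukin 1 receptor, had 0 counts in vehicle M0 and 44.6 ± 31.3 CPM in vehicle M1 (adjusted edgeR p of 2.86e-05). The sensor gene Nlrp3 reached at most 6 counts and Il18 had 0.

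Of 19 genes of glucose uptake and glycolysis 10 were tested, 6 with an opposite-strand overlap of their own. Hk3, Aldoa, Gapdh, Pgk1 and Ldha reached the level of the filter in 0 M0 libraries, so that their higher values in M1 were a condition of being tested. Of the 5 others, Pkm was called higher in both treatments and Slc16a3, a lactate exporter gene, under ISRIB (adjusted edgeR p of 0.0317) but not in vehicle (0.254), a difference that did not pass as an interaction. Hk1, Pfkp and Tpi1 did not pass in either. Of all tested genes, 24.3% were called higher in vehicle and 23.9% under ISRIB. With a mean of 50 counts required, 1 gene of the list was tested and 0 were called. Of all 836 genes then tested, 530 were called in vehicle and 523 under ISRIB. Hk3, a hexokinase that overlaps Unc5a, rose from 1.35 ± 2.34 to 59.6 ± 7.96 CPM in vehicle (SD, n = 3; adjusted edgeR p of 3.41e-05). Aldoa, aldolase, which overlaps Fam57b, rose by 3.93 ± 0.65 on the log2 scale (adjusted edgeR p of 1.68e-05). Gapdh, a dehydrogenase of the pathway, which overlaps Iffo1, rose by 3.53 ± 0.66 (adjusted edgeR p of 9.56e-05). Pkm, pyruvate kinase, with no such overlap, rose from 22.8 ± 14.4 to 130.2 ± 45.5 CPM (adjusted edgeR p of 0.000749). The glucose transporter gene Slc2a1 reached at most 14 counts and was not tested. In the ISRIB contrasts and the interaction, 0 genes of any of these lists passed.

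Of 835 other genes whose mean reached 50 counts, the profiles most like that of Gm15441 over the 12 libraries were those of Nt5dc2 (Pearson r = 0.993 of log2 CPM), Card14 (0.991), Fdft1 (0.989), 4931431C16Rik (0.988) and Pltp (0.987). The choice fixed their direction, since the profile of Gm15441 is mainly the step from M0 to M1, and their log2 fold changes in vehicle ran from -4.52 for Card14 to -1.63 for Pltp. With group means removed, r with Gm15441 was 0.11, 0.57, -0.12, 0.10 and -0.42 in the same order. These 5 overlap exons of Stab1, Sgsh, Ctsb, Acox3 and Ctsa on the opposite strand, as did 86.9% of the 835 genes with some partner. The most opposite profiles were those of Gm16712 (r = -0.995), which overlaps Ebi3 and Yju2, Parp9 (-0.995), an interferon-induced gene that overlaps Dtx3l, and Tlr1 (-0.993), a Toll-like receptor gene with no such overlap. These correlations share the libraries and the step between M0 and M1, and 154 of the 835 genes had r above 0.9 and 167 r under -0.9. Under ISRIB in M0, the 5 most similar genes had log2 fold changes from -0.31 for 4931431C16Rik to 0.15 for Card14, with adjusted edgeR p-values of 0.602 or more.

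**Figure D5:**
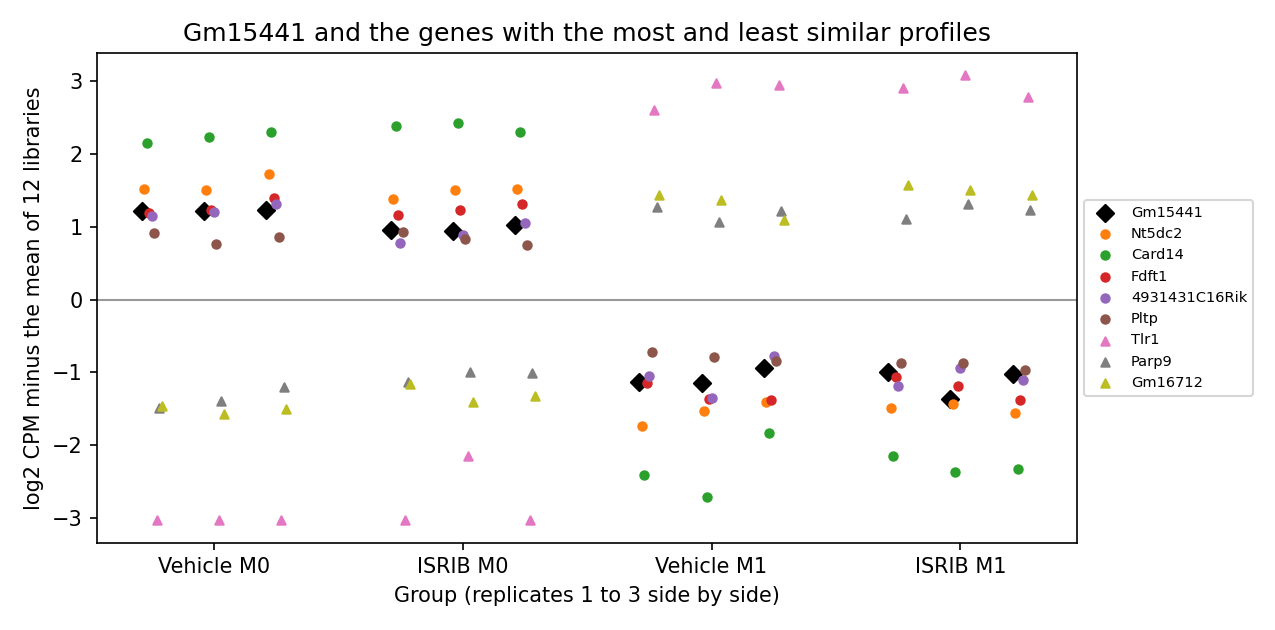
Log2 CPM of Gm15441 (black diamonds), the 5 genes with the most similar profile (circles) and the 3 with the least similar (triangles), each minus its mean over 12 libraries, by group. Circles and diamonds are above 0 in all M0 libraries and under 0 in all M1 libraries, and triangles the reverse.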

How the data were processed

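RNA sequencing counts were analysed for 12 libraries in 4 groups of 3. The authors deposited whole-number counts per gene symbol, and a table of log2 values that, per the values in both deposited tables, are the log2 of the count divided by 1 size factor per library, plus 1. Strand-specific TruSeq mRNA libraries were made, per the labels' protocols. FastQC, HTSeq, DESeq2 and mm10 are named in the submitters' processing notes; the aligner, annotation and strand setting are not given in the sources used here. Groups and replicate numbers came from sample titles, and columns from sample descriptions.

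Counts were fitted in R 4.3.3 with edgeR 4.0.16 (filterByExpr at min.count 10 and min.total.count 15, TMM, 1 mean per group, all 12 libraries, quasi-likelihood test). P-values were adjusted by Benjamini-Hochberg over 2356 genes, with a threshold of 0.05. The fit was tested on simulated data for vehicle M1 against M0. It called 29.7% of genes with a log2 change of 1 in either direction, 87.6% at 2 and 0.157% at 0. In this simulation 1910 of 2090 genes had no change, and all genes had the same variation between libraries beyond counting error. In the data 44.8% of tested genes were called, so these rates may not hold for the real fit. No change with ISRIB was simulated. Txnip was under the filter and was fitted without one. Standard errors are those implied by the test statistic, and log2 CPM used a prior count of 2. Alternatives used limma 3.58.1 and DESeq2 1.42.0. The script matched 24030 of 24552 symbols to GENCODE M21.

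The members and lists were chosen with earlier results of these data known. Named genes were the pair; up to 4 list members per list past the threshold, by p; genes within 200 kb; the 5 most and 3 least correlated genes; and 4 comparison pairs. Srxn1, Slc2a1, the other tested glycolysis genes and genes too low to test were named beyond this rule, after their values were seen.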

Additional observations from a re-analysis of the deposited data

How the results depend on the processing

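The fall of Gm15441 in M1 kept its direction and side of the threshold in all 22 alternatives in vehicle and all 22 under ISRIB. Scaling by library totals, chosen after seeing the data, moved the median log2 fold change of all tested genes by polarization to -0.29 in vehicle and -0.30 under ISRIB. With it Gm15441 was at -2.59 and -2.37, and the share of called genes that were higher was 41.3% in vehicle (54.2% with TMM) and 39.4% under ISRIB (53.4%). In M0, ISRIB against vehicle for Gm15441 passed only with limma-voom (-0.25). The interaction for Gm15441 ran from 0.13 to 0.32 with 1 library left out. In M1, ISRIB against vehicle ran from -0.11 to 0.078 when 1 library was left out, above 0 without vehicle M1 replicate 3 or ISRIB M1 replicate 2.

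Values of Txnip rest on few counts. With 1 library left out they ran from -2.29 to -0.26 for polarization in vehicle, from -2.07 to 0.22 for polarization under ISRIB, from -0.45 to 1.85 for ISRIB in M1, from -0.66 to 1.36 for ISRIB in M0, and from -1.10 to 1.20 for the interaction. The interaction was -0.12 in edgeR, 0.45 with limma-voom and 0.33 with limma on the deposited log2 values. The share of the pair's counts under Txnip was higher in M1 in all 14 alternatives, by 0.0251 to 0.0632 points, with exact permutation p from 0.0909 to 0.7. These alternatives reuse the same 12 libraries, so they are not independent of each other. The pair held 3451 to 4333 counts in M1 libraries and 18509 to 25957 in M0, so 1 Txnip count weighed more in M1.

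Numbers of genes called in polarization fell to 530 in vehicle and 523 under ISRIB, from 1055 each, when a mean of 50 counts was required, since 836 genes were then tested. For ISRIB in M0, 0 genes became 3 with the DESeq2 Wald test, 1 with limma-voom, 10 without a filter, and 0 to 6 with 1 library left out (6 without ISRIB M0 replicate 1, 2 without ISRIB M0 replicate 2). For ISRIB in M1 leaving out 1 library gave 0 to 1 (1 without ISRIB M1 replicate 2). For the interaction, 0 became 9 without a filter, 3 with the replicate block, and 0 to 4 with 1 library left out (4 without ISRIB M0 replicate 1, 1 without ISRIB M0 replicate 2). The cause was not tested. With only the compared groups in the fit, the thioredoxin list had 3 tested genes in vehicle (2 higher, 1 lower) and 2 under ISRIB (1 higher, 1 lower). In those fits 897 of 1834 genes were called in vehicle and 934 of 1911 under ISRIB. With a mean of 50 counts the 3 tested lists kept 1, 0 and 1 genes.

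Samples share replicate numbers that the labels do not explain. Same-numbered samples had correlations of deviations from -0.06 to 0.113, and every sample correlated best with its own number in 2 of 4 contrasts, M1 against M0 under ISRIB and ISRIB against vehicle in M0. With the replicate block, 1047 and 1026 genes were called for polarization in vehicle and under ISRIB, and Gm15441 in M0 under ISRIB was at -0.25 with an adjusted edgeR p of 0.221. The block changed no call for either member.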

Other observations

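All 11 counts of Txnip above 0 were even numbers, and 6 of the 12 Gm15441 counts were. Among all counts from 1 to 24 of matched symbols, 64.7% of 47919 were even. The share was 68.9% in symbols with no exon on the opposite strand of another gene's exon and 58.2% in symbols with one. This was noticed after the values were seen, and how read pairs were counted was not tested.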
